A study of Mus musculus with 32 samples.

Results

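A set of 10 genes of purine handling were followed here, chosen because their products take up, phosphorylate, make or remove AICAR and AMP: Slc29a1, Adk, Gart, Paics, Adsl, Atic, Ampd1, Ampd3, Hprt and Impdh2. The platform table gives 9 of these 10 symbols to 16 probes, out of 23978 probes and 16593 genes that carry a symbol, while Impdh2 was not analysed here because no probe carried that symbol. The arrays were Illumina MouseRef-8 bead arrays hybridised with bulk RNA of gastrocnemius, a calf muscle, and of hippocampus, of C57BL/6J females aged 23 months. Each tissue had 4 groups of 4 arrays. Mice of the AICAR groups were injected in the abdominal cavity with 500 mg/kg/day for 3, 7 or 14 days, and the control mice received saline for 3 days only, so the 7-day and 14-day groups had no saline group of equal length. All mice were killed 33 days after the last injection and perfused with saline, so the values describe tissue that had long been free of injections. The labels do not say whether arrays of a group came from separate mice or whether a mouse gave both tissues, so the p-values measure the spread between these arrays, which may be technical.

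AICAR is a nucleoside that cells take up through adenosine transporters. Inside the cell adenosine kinase adds a phosphate and turns it into ZMP, which resembles AMP closely enough to switch on the energy sensor AMPK. ZMP is also a natural intermediate: the de novo pathway builds the purine ring step by step on ribose phosphate, makes ZMP with the lyase Adsl, and spends it with Atic to form IMP, the parent of AMP and GMP. AMP deaminases turn AMP into IMP, and in skeletal muscle this reaction is part of the purine nucleotide cycle, in which Adsl also takes part. Hprt returns the bases hypoxanthine and guanine to nucleotides, and it is a frequent control gene in expression studies.

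In muscle, Paics and 2 of the 3 Hprt probes were called higher after 7 and 14 days of AICAR. For Paics and 1 of these Hprt probes every such array lay above every saline array, while the other of these lay near background. The remaining Hprt probe, the brightest, was not called in muscle. Adsl was lower at both times, but its 7-day call was lost when any 1 of the arrays compared was left out. Adk was lower at 7 days on the brighter of its 2 probes, and the dimmer probe was not called. The size of the Paics change is uncertain, because Paics was above background on 1 of 4 saline arrays. In hippocampus Atic was about 1.5-fold higher at both times on its brightest probe, and 1 of the 2 Gart probes was lower. The Gart calls were lost at both times when the arrays were scaled by their medians. No probe of the 9 genes passed the test after 3 days in either tissue. Ampd1, the muscle AMP deaminase, was among the brightest probes of muscle and its level did not pass the test at any time.

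Levels below are log2 values after background correction and quantile normalisation within a tissue, and a change is a difference of mean levels with its standard error. A change was called when its p, from a linear model with moderated variance (limma) fitted over all probes of the tissue, was below 0.05 after Benjamini-Hochberg adjustment. In muscle 15 of the 16 probes, for 8 genes, were detected often enough to be tested, and in hippocampus 12 probes for 6 genes. The array signal itself split the study: raw median intensity was 169.6 to 199.1 on the 7-day and 14-day muscle arrays, against 137.9 to 160.1 on the 3-day and saline ones. In hippocampus it was 181.3 to 205.5 on the 7-day and 14-day arrays, against 141.3 to 161.9 on the 3-day and saline ones. The first principal component separated the same sets in both tissues without overlap, so handling and treatment cannot be told apart in any comparison of a 7-day or 14-day group with saline or 3 days. Within the sets, AICAR for 3 days against saline and for 14 against 7 days gave 0 called probes of any gene in both tissues. Those 4 comparisons had 1434 and 631 probes at unadjusted p below 0.05 in muscle, and 823 and 404 in hippocampus. Defining markers were detected where the labels place them: 7 of 7 muscle fibre markers on every muscle array, and 6 of the 6 neuronal markers with a usable probe on every hippocampal array. Some were also detected in the other tissue. The neuronal marker Camk2a was detected on all 16 muscle arrays, and the fibre markers Pvalb and Acta1 on all 16 hippocampal arrays and Atp2a1 on 7.

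In muscle 5 of 15 member probes were called at 7 days (3 higher, 2 lower), where 19.7% of all tested probes were called (10.8% higher, 8.86% lower), and 4 of 15 at 14 days (3 higher, 1 lower), where 18.8% were (11% higher, 7.81% lower). In hippocampus 3 of 12 were called at 7 days (2 higher, 1 lower), where 27.1% of all tested probes were called (13.1% higher, 14% lower), and 4 of 12 at 14 days (2 higher, 2 lower), where 29.5% were (13.7% higher, 15.9% lower). The median change of the member probes was -0.01 at both times in muscle, and 0.01 at 7 days and 0.00 at 14 days in hippocampus. At 3 days 0 of 15 and 0 of 12 were called, where 0% of all probes were. Against the 3-day groups, 4 of 15 were called at 7 days and 5 of 15 at 14 days in muscle (18.2% and 19.2% of all probes), and 3 of 12 and 5 of 12 in hippocampus (26.2% and 27% of all probes). Groups that did not overlap are a looser count. In muscle the arrays of a treated group lay wholly to 1 side of saline for 1 member probe at 3 days (7.81% of all probes), 4 at 7 days and 5 at 14 days (23% of all probes each). In hippocampus this held for 1 at 3 days (2.07%), 2 at 7 days (30.3%) and 4 at 14 days (31.8%). Against the 3-day group it held for 5 and 6 in muscle (22.6% and 23%) and for 4 and 3 in hippocampus (24.7% and 26.1%), at 7 and at 14 days. Between 14 and 7 days it held for 0 in muscle (2.33%) and 1 in hippocampus (3.04%). These counts cover few probes, several of 1 gene, and are given as a description.

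**Figure D1:**
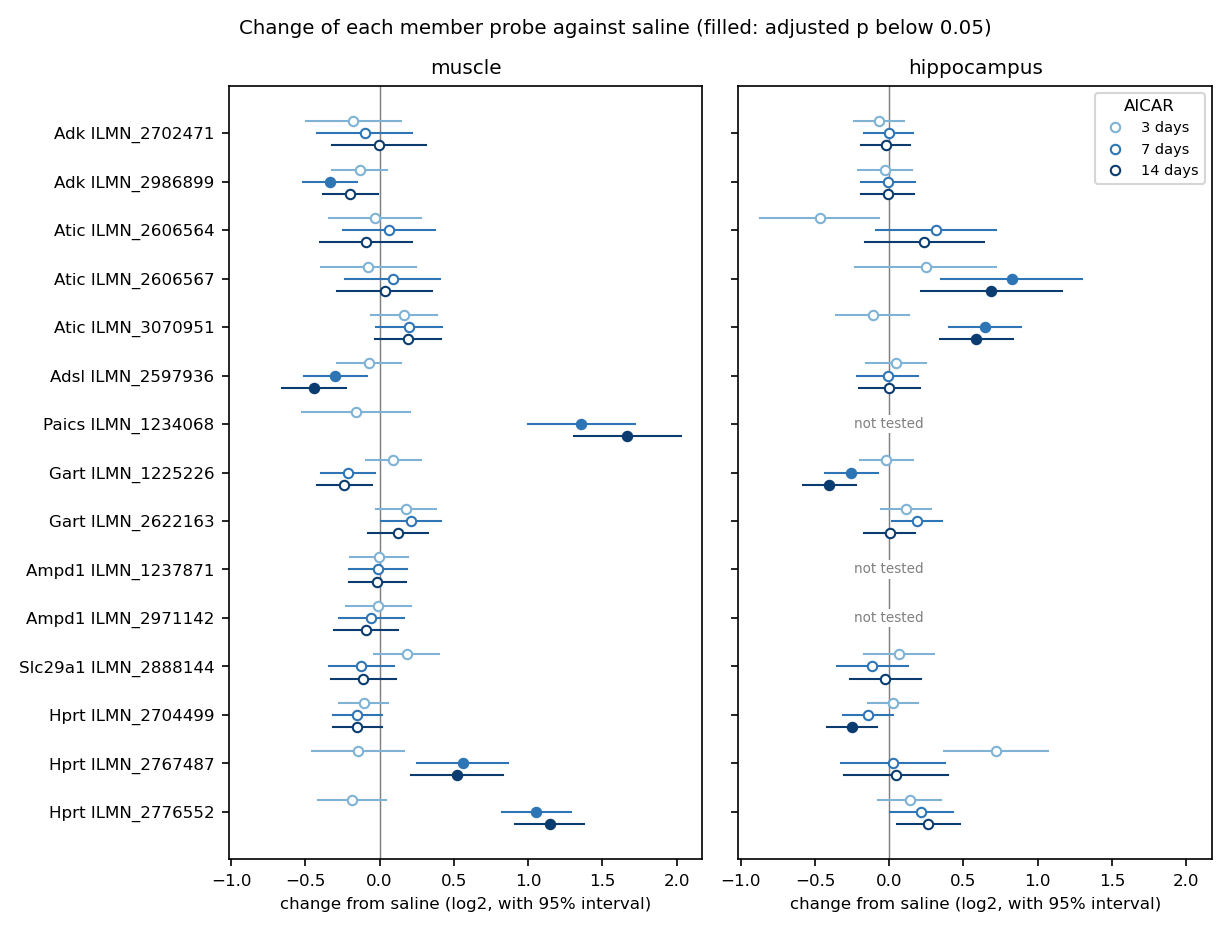
Change of each member probe from saline (log2, horizontal axis) at 3, 7 and 14 days of AICAR, with 95% intervals; muscle is on the left and hippocampus on the right, and filled points have an adjusted p below 0.05. Paics and 1 Hprt probe stand to the right of the others in muscle at 7 and 14 days. Atic ILMN_3070951 and ILMN_2606567 do so in hippocampus at those times, and Paics and Ampd1 were not tested there.

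Paics carries a pair of consecutive activities of the de novo pathway, the carboxylase and the synthetase that attaches aspartate just upstream of Adsl. Its probe ILMN_1234068 read 5.14, 5.16, 5.66 and 5.15 on the saline muscle arrays and 4.79, 5.2, 4.97 and 5.52 after 3 days. It read 7.08, 6.43, 6.49 and 6.54 after 7 days and 7.18, 6.94, 6.85 and 6.81 after 14 days. Every 7-day and 14-day array lay above every saline and 3-day array. The change from saline was 1.36 ± 0.17 at 7 days (limma, adjusted p = 1.8e-05) and 1.67 ± 0.17 at 14 days (limma, adjusted p = 1.6e-06), on the log2 scale after background correction. At 3 days it was -0.16 ± 0.17, and 14 days exceeded 7 days by 0.31 with a 95% interval from -0.05 to 0.67, so those neighbouring groups did not differ beyond their spread. In bulk tissue, fewer cells of a type and less RNA per cell cannot be told apart, here and in all results that follow.

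The Paics signal was low. It stood above the negative controls (detection p below 0.05) on 4 of 4 arrays at 7 days and at 14 days, but on 1 of 4 arrays each at 3 days and in saline, so no fold is given against that dim group. The size depended on the background step: without background correction the changes were 0.47 and 0.61, still called. Leaving out any 1 array kept both calls. On hippocampal arrays Paics was detected on 0 of 16 and was not tested.

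Paics lies beside Ppat on the opposite strand, and the product of Ppat is the amidotransferase that commits ribose phosphate to purine synthesis. The windows from RefSeq (GRCm38.p6), 250 bases before to 50 after each start site, are shown because the start sites of the pair are close on chromosome 5. Paics is at chr5:76951052-76951351 on the plus strand and Ppat at chr5:76951529-76951828 on the minus strand, and the annotated start sites are 276 bases apart. The Ppat start lies downstream of the Paics start, so the annotated genes overlap only in the stretch between the start sites. Beyond that stretch the pair is read away from each other. Capitals mark matches, on either strand, to the motifs searched. These were the E-box CACGTG, the GC box GGGCGG, the CCAAT box, the TATA box TATAAA, the cAMP response element TGACGTCA and the NRF1 motif.
Paics: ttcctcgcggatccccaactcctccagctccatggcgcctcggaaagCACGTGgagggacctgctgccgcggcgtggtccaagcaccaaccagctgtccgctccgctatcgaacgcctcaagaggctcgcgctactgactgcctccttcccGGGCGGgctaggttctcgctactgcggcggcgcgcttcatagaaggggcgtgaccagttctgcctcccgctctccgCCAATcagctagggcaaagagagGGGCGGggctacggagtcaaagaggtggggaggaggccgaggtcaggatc
Ppat: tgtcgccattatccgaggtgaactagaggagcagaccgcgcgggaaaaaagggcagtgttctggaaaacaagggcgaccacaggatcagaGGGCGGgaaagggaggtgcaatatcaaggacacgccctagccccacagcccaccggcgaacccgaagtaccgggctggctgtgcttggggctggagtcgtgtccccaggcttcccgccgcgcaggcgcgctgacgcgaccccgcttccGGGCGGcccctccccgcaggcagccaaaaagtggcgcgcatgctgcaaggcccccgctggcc
The Paics window holds 1 E-box, 2 GC boxes and 1 CCAAT box, and the Ppat window 2 GC boxes, none of them overlapping. Of 32851 RefSeq windows of this length, 7.15% hold the E-box, 35.7% the GC box, 37.4% the CCAAT box, 13.6% the TATA box, 1.79% the cAMP response element and 0.971% the NRF1 motif. The E-box is thus the least common of the motifs found in these windows. In muscle Ppat changed by 0.11 ± 0.11 at 7 days (limma, adjusted p = 0.52) and by 0.24 ± 0.11 at 14 days (limma, adjusted p = 0.15), neither called, and it was 0.36 ± 0.11 above the 3-day group at 14 days (limma, adjusted p = 0.035). The values of the pair are given side by side, and the difference between the genes was not tested.

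Gart, also in the de novo pathway, joins several activities in a single protein, among them the transformylase that takes a carbon from folate. Its 2 probes went different ways. In hippocampus ILMN_1225226 read 8.50, 8.55, 8.70 and 8.55 in saline, 8.41, 8.51, 8.59 and 8.70 after 3 days, 8.18, 8.32, 8.35 and 8.43 after 7 days, and 8.01, 8.28, 8.18 and 8.21 after 14 days. All 7-day and 14-day arrays lay below all saline arrays. The change was -0.40 ± 0.08 at 14 days (limma, adjusted p = 0.0026) and -0.26 ± 0.08 at 7 days (limma, adjusted p = 0.035). The second probe, ILMN_2622163, ran from 6.91 to 7.29 over all hippocampal arrays, with changes of 0.19 ± 0.08 at 7 days (limma, adjusted p = 0.092) and 0.00 ± 0.08 at 14 days. The correlation of the 2 probes over the 16 hippocampal arrays was 0.04, given as a description.

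The lower Gart value in hippocampus held less well than Paics. With median scaling in place of quantile normalisation, ILMN_1225226 changed by 0.065 at 7 days (adjusted p = 0.78) and by -0.23 at 14 days (adjusted p = 0.29), so that the direction turned at 7 days and the call was lost at both. The 7-day call was also lost with the deposited series values (adjusted p = 0.31) and when replicate 1, 2 or 3 of the 7-day group or replicate 2, 3 or 4 of the saline group was left out (adjusted p 0.053 to 0.10). In muscle this probe was lower than saline by 0.21 ± 0.09 at 7 days (limma, adjusted p = 0.097) and by 0.24 ± 0.09 at 14 days (limma, adjusted p = 0.067), which did not pass, and it was 0.33 ± 0.09 below the 3-day group at 14 days (limma, adjusted p = 0.014). The change from saline did not differ detectably between the tissues: the difference was 0.04 at 7 days and 0.17 at 14 days, with 95% intervals from -0.20 to 0.28 and from -0.07 to 0.40. The other Gart probe, ILMN_2622163, had muscle means above saline and was not called in any muscle comparison. It averaged 8.71 at 7 days and 8.62 at 14 days, against 8.50 in saline and 8.67 after 3 days.

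Adsl makes ZMP in the de novo pathway and releases AMP from adenylosuccinate. In muscle its probe ILMN_2597936 read 10.26, 10.42, 10.33 and 10.24 in saline, 10.34, 10.42, 10.13 and 10.07 after 3 days, 9.90, 10.02, 10.07 and 10.06 after 7 days, and 9.69, 10.02, 9.74 and 10.03 after 14 days. The 7-day and 14-day arrays lay below all saline arrays, and the 3-day arrays overlapped with saline. The change was -0.44 ± 0.10 at 14 days, a level 0.736 times that of saline (limma, adjusted p = 0.0048), and it was called under all 16 alternatives. At 7 days it was -0.30 ± 0.10 (limma, adjusted p = 0.047), a call that was lost when any 1 of the 8 arrays was left out (adjusted p 0.063 to 0.12), without the filter on dim probes (adjusted p = 0.060) and with the replicate number as a block (adjusted p = 0.053).

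In hippocampus Adsl stayed between 7.30 and 7.71 on all 16 arrays, and its change was 0.00 at 14 days with a 95% interval from -0.20 to 0.21. The change from saline in muscle minus that in hippocampus was -0.44 ± 0.14 at 14 days (limma interaction, adjusted p = 0.025). Leaving out 1 of 5 arrays ended that call (adjusted p 0.052 to 0.062): replicate 1 or 3 of the 14-day group or replicate 2 of the saline group in muscle, or replicate 2 of the 14-day group or replicate 4 of the saline group in hippocampus. Of the 12 member probes tested for such a tissue difference, 2 were called at 14 days (1 higher in muscle, 1 lower), where 16.5% of all probes were called, and 2 at 7 days, where 16.7% were.

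**Figure D2:**
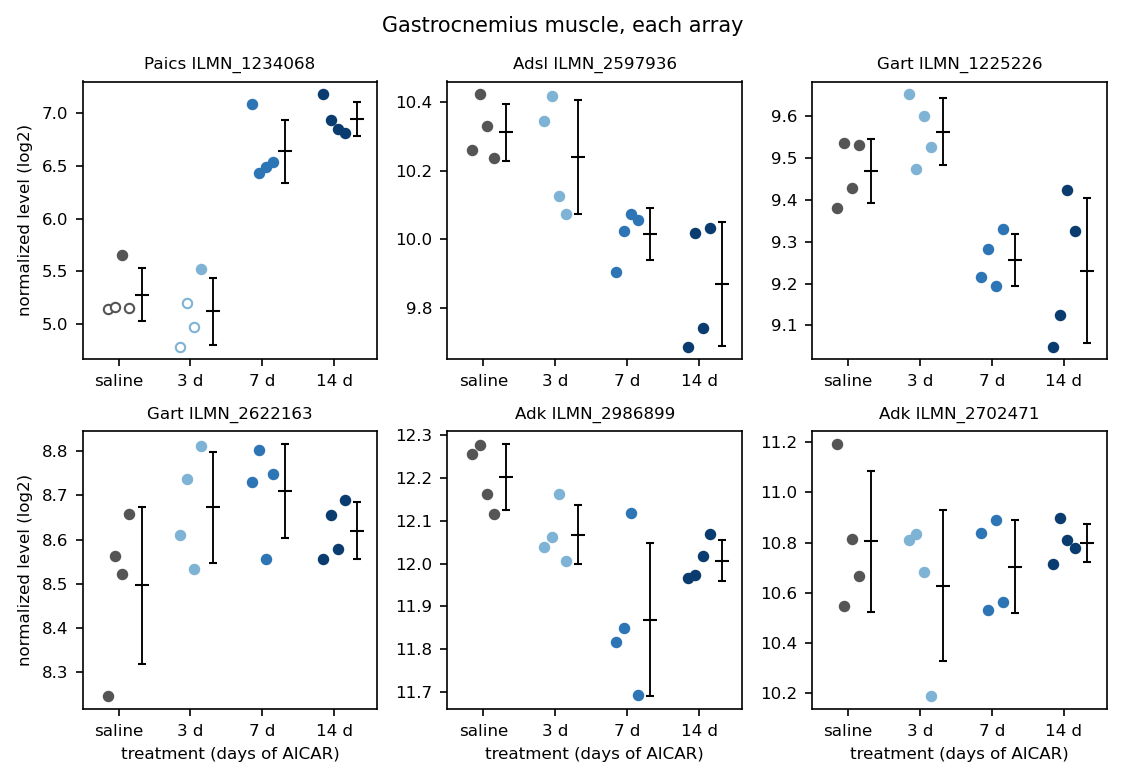
Level on each muscle array (log2, vertical axis, own scale in each panel) for the probes of Paics, Adsl, Gart and Adk in saline and after 3, 7 and 14 days of AICAR; bars are mean ± SD of 4 arrays, and open points were not above background. Paics lies above 6.4 at 7 and 14 days and below 5.7 in the other groups, and Adsl lies below all saline arrays at 7 and 14 days.

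Atic carries out the last steps of the de novo pathway, adding a formyl group to ZMP and closing the ring to IMP, so its substrate is the phosphorylated form of the injected compound. In hippocampus its brightest probe, ILMN_3070951, read 7.41, 7.31, 7.31 and 7.57 in saline and 7.56, 7.21, 7.42 and 6.94 after 3 days. It read 8.08, 8.01, 7.98 and 8.09 after 7 days and 8.12, 8.03, 7.79 and 8.0 after 14 days. The 7-day and 14-day arrays all lay above the saline and 3-day arrays. The change was 0.64 ± 0.11 at 7 days, 1.56-fold (limma, adjusted p = 0.0010), and 0.59 ± 0.11 at 14 days, 1.5-fold (limma, adjusted p = 0.0016), and both were called under all 16 alternatives. Without background correction they were 0.39 and 0.35.

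The window at the start of Atic (RefSeq, GRCm38.p6, chr1:71556906-71557205, plus strand) is shown beside those of Paics and Ppat, since Atic and Paics serve 1 pathway. Atic was called higher in hippocampus and Paics in muscle, but Paics was not tested in hippocampus. The test of a tissue difference for Atic is given below.
Atic: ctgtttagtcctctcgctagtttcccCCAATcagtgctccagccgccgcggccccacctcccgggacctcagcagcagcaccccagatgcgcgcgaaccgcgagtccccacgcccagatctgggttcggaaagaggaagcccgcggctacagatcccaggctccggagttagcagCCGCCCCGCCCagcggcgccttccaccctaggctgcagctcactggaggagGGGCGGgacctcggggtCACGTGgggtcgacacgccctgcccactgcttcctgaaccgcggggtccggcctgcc
Capitals mark the same motifs. Like the Paics window it holds an E-box and a CCAAT box, and it has 3 GC boxes, of which 2 overlap on the opposite strand. The E-box begins 7 bases before the start site in Atic and 203 before it in Paics, and a match of letters does not show that a factor binds there.

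The other Atic probes were dimmer. ILMN_2606567 was detected on 1 of 4 hippocampal arrays each in saline (6.04, with 5.01, 5.07 and 4.96 on the others) and at 3 days, and on all arrays at 7 days (6.38, 5.75, 6.17 and 6.08) and 14 days (5.74, 6.04, 5.80 and 6.25). Saline replicate 2 thus lay among the treated ones. The change was 0.82 ± 0.22 at 7 days (limma, adjusted p = 0.013) and 0.69 ± 0.22 at 14 days (limma, adjusted p = 0.031), and 0.27 and 0.22 without background correction. The 14-day call was lost without replicate 2 or 4 of the 14-day group or replicate 1, 3 or 4 of saline (adjusted p 0.069 to 0.088). ILMN_2606564 changed by 0.31 ± 0.19 and 0.24 ± 0.19 at 7 and 14 days and was not called (limma, adjusted p = 0.23 and 0.38), though it was 0.78 ± 0.19 above the 3-day group at 7 days (limma, adjusted p = 0.0075).

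In muscle none of the 3 Atic probes was called, and ILMN_3070951 was 0.20 ± 0.10 above saline at 7 days and 0.19 ± 0.10 at 14 days. The muscle change minus the hippocampal change for that probe was -0.45 ± 0.15 at 7 days (limma interaction, adjusted p = 0.046) and -0.39 ± 0.15 at 14 days (limma interaction, adjusted p = 0.082). The 7-day call was lost in 13 of the 16 repeats that left out 1 array (adjusted p 0.053 to 0.099), and without background correction, without the filter on dim probes or with the replicate block (adjusted p 0.11, 0.066 and 0.062). It was kept without replicate 2 of the muscle 7-day group, replicate 1 of muscle saline or replicate 4 of hippocampal saline.

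Other cell types moved with the hippocampal groups in part. Of the microglia and macrophage markers 5 were tested and 3 were higher at both 7 and 14 days, with 0 lower, where 12.1% and 12.6% of all genes were higher. Their summed linear level was 2002 to 2229.5 on the saline arrays, 1964 to 2524 after 3 days, 1757 to 2809 after 7 days and 2113 to 2750.2 after 14 days, and all 5 were detected on every array. Of 6 astrocyte markers 2 were higher and 1 lower at both times, and of 6 neuronal markers 2 were lower at 7 days and 0 at 14 days, where 15.4% and 17.5% of all genes were lower. Endothelial markers had 1 of 6 lower at 7 days, oligodendrocyte markers 1 of 5 higher at 14 days, and choroid plexus markers 1 of 7 higher at both times. The choroid plexus sum ran from 3060.0 to 42943 on the saline arrays, from 4825 to 48424 after 7 days and from 41410.1 to 50435 after 14 days. Red cell markers had 0 of 4 called, with sums of 3618 to 6274 on the saline arrays, 4609.5 to 21879 after 3 days, 740.8 to 4397 after 7 days and 494.0 to 6728 after 14 days. Their part in the Atic and Gart results was not tested.

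**Figure D3:**
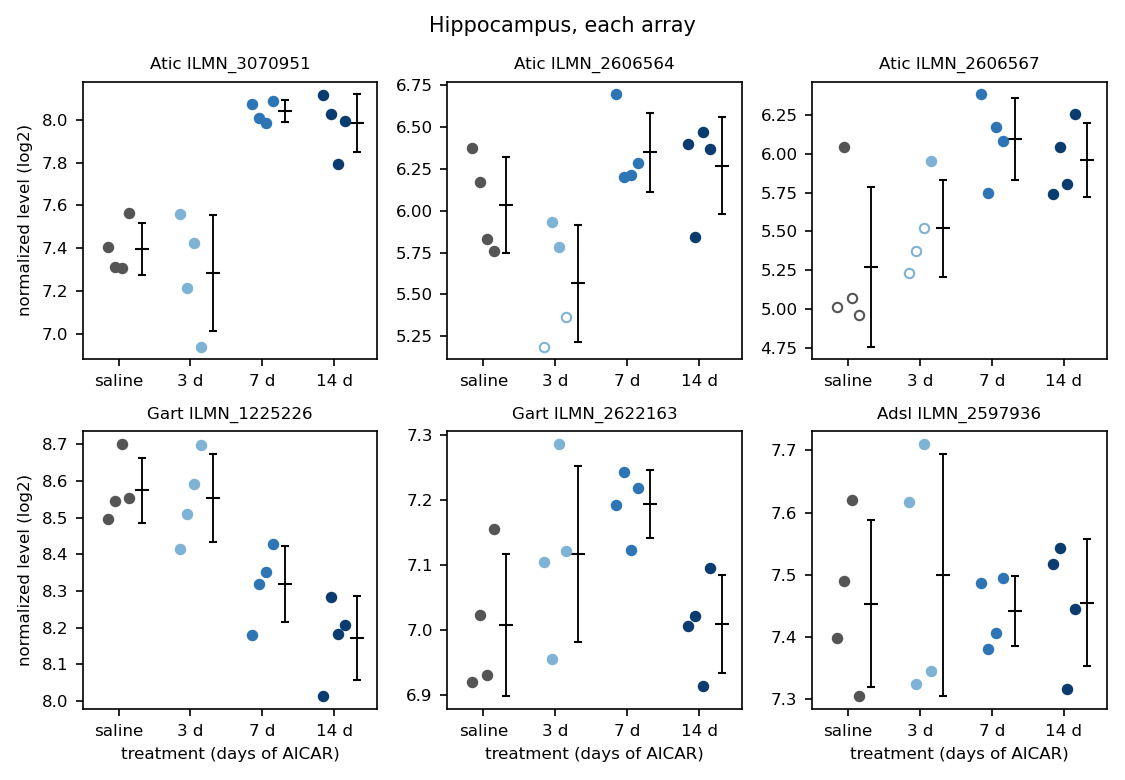
Level on each hippocampal array (log2, vertical axis, own scale in each panel) for the probes of Atic, Gart and Adsl in saline and after 3, 7 and 14 days of AICAR; bars are mean ± SD of 4 arrays, and open points were not above background. Atic ILMN_3070951 separates the 7-day and 14-day arrays from the others, Gart ILMN_1225226 is lowest at 14 days, and Adsl overlaps in all groups.

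Hprt, the salvage enzyme for hypoxanthine and guanine, had 3 probes that did not all follow each other. In muscle ILMN_2776552 read 7.66, 7.57, 7.88 and 7.69 in saline and 7.38, 7.56, 7.56 and 7.55 after 3 days. It read 8.88, 8.84, 8.80 and 8.49 after 7 days and 9.01, 8.86, 8.57 and 8.92 after 14 days. The 7-day and 14-day arrays lay above all others, and all 16 were above background. The change was 1.06 ± 0.11 at 7 days, 2.08-fold (limma, adjusted p = 1.9e-06), and 1.14 ± 0.11 at 14 days, 2.21-fold (limma, adjusted p = 6.9e-07), called under all 16 alternatives at both times. Without background correction the changes were 0.73 and 0.80.

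The brighter probe ILMN_2704499 gave no such change. It read 11.28, 11.32, 11.09 and 11.19 in saline muscle, 11.15, 11.10, 10.95 and 11.06 after 7 days, and between 10.98 and 11.19 after 14 days, so the groups overlapped. Its change was -0.15 ± 0.08 at both times, with 95% intervals from -0.32 to 0.01 at 14 days (limma, adjusted p = 0.18). The correlation between these 2 probes over the 16 muscle arrays was -0.44, a description. Hprt in muscle therefore cannot be given 1 direction: the answer depends on the probe. Which transcripts each probe binds was not analysed here.

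The third probe, ILMN_2767487, was not above background on any saline or 3-day muscle array, and on 2 of 4 arrays at 7 days and 2 of 4 at 14 days. Its change was called, 0.56 ± 0.15 at 7 days (limma, adjusted p = 0.012) and 0.52 ± 0.15 at 14 days (limma, adjusted p = 0.019), but both means lay too near background for a fold to be given. Without background correction the values were 0.23 and 0.22, and the 14-day call was lost without saline replicate 1 (adjusted p = 0.055). The mean was 5.28 at 7 days and 5.24 at 14 days, against 4.72 in saline. Over the 16 muscle arrays ILMN_2767487 correlated with ILMN_2776552 at 0.80, and at -0.21 after each group's mean was taken off. The likeness of these probes thus lay in the group means.

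In hippocampus the call against saline fell on a different Hprt probe, ILMN_2704499 at 14 days. ILMN_2767487 averaged 6.29 at 7 days and 6.31 at 14 days, against 6.27 in saline, and was not called. ILMN_2776552 was 0.22 ± 0.10 above saline at 7 days and 0.26 ± 0.10 at 14 days, and the 14-day arrays (8.92, 9.05, 9.02 and 8.91) lay above all saline arrays (8.79, 8.71, 8.65 and 8.69), without passing the test (limma, adjusted p = 0.060). It passed in 4 of the alternatives (adjusted p 0.033 to 0.045). ILMN_2704499 was lower at 14 days, at 12.35, 12.40, 12.27 and 12.16 against 12.60, 12.54, 12.54 and 12.50 in saline, a change of -0.25 ± 0.08 (limma, adjusted p = 0.027). That call was lost under median scaling (adjusted p = 0.30) and without replicate 3 or 4 of the 14-day group or replicate 1 or 2 of saline (adjusted p 0.053 to 0.083).

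After 3 days ILMN_2767487 read 6.87, 7.10, 6.95 and 7.02 in hippocampus, above all saline arrays at 5.93, 6.32, 6.39 and 6.43. The change of 0.72 ± 0.16 did not pass (limma, adjusted p = 0.33), in a comparison in which 0 of 13659 probes were called. It was the only member probe whose 3-day and saline arrays did not overlap in hippocampus, where 2.07% of all probes did not. At 7 and 14 days it was 0.70 ± 0.16 and 0.67 ± 0.16 below the 3-day group (limma, adjusted p = 0.0066 and 0.0077), comparisons that share the 3-day arrays. Median scaling ended both calls (adjusted p = 0.12 and 0.13), and without background correction the changes were -0.29 and -0.28.

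The rise of ILMN_2776552 in muscle differed from its change in hippocampus by 0.84 ± 0.15 at 7 days (limma interaction, adjusted p = 0.00016) and by 0.88 ± 0.15 at 14 days (limma interaction, adjusted p = 8.6e-05). The 14-day difference was called under all 24 alternatives and the 7-day one under 23, median scaling being the exception (0.36, adjusted p = 0.15).

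**Figure D4:**
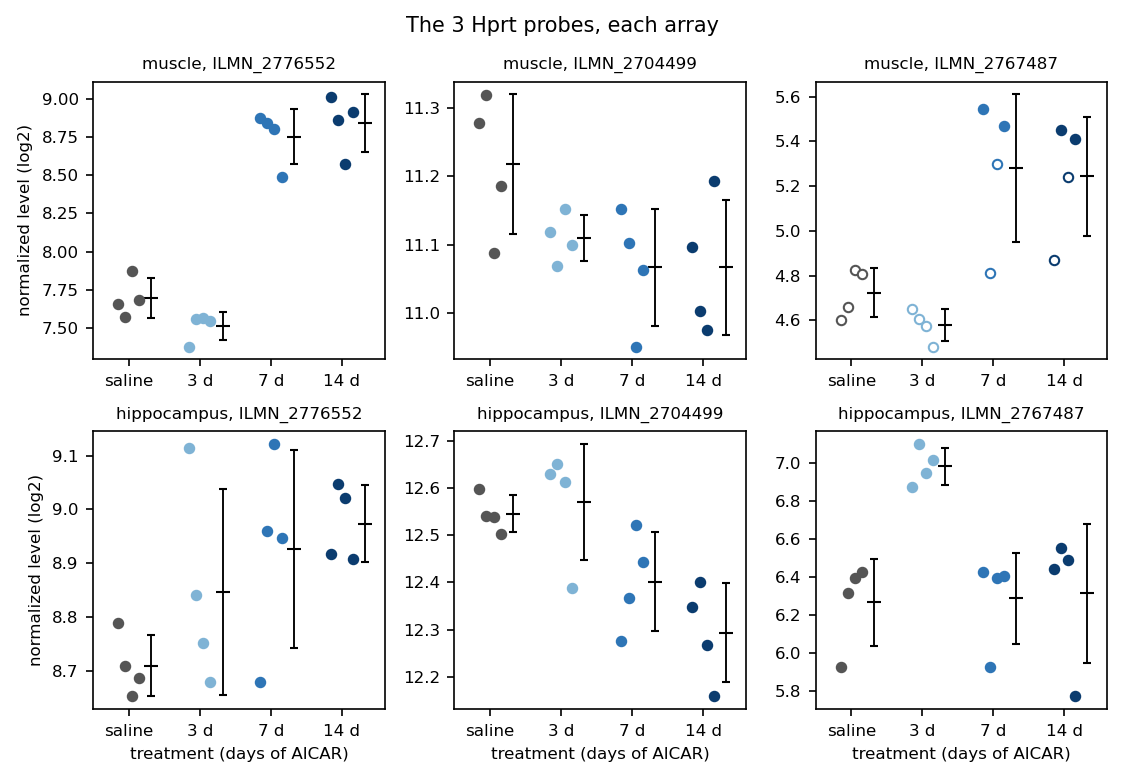
Level on each array (log2, vertical axis, own scale in each panel) of the 3 Hprt probes, muscle above and hippocampus below, in saline and after 3, 7 and 14 days of AICAR; bars are mean ± SD of 4 arrays, and open points were not above background. In muscle ILMN_2776552 is above 8.4 at 7 and 14 days and below 7.9 in the other groups, while ILMN_2704499 overlaps in all groups.

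The Hprt window (RefSeq, GRCm38.p6, chrX:52987828-52988127, plus strand) is printed because the gene is so often taken as a constant control.
Hprt: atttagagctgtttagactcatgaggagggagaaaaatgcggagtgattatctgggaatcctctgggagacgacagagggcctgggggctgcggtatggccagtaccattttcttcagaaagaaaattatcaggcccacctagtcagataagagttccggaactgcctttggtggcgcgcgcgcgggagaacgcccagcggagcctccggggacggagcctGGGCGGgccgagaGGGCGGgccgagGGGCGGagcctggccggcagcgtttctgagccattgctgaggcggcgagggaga
Capitals mark the same motifs. It holds 3 GC boxes, which begin 29, 16 and 4 bases before the start site, the last of them running across it. It holds none of the other motifs, the E-box included.

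AICAR enters cells through equilibrative nucleoside transporters, of which Slc29a1 is the best known. In muscle its probe ILMN_2888144 read 8.35, 8.66, 8.39 and 8.46 in saline, 8.63, 8.58, 8.66 and 8.72 after 3 days, 8.38, 8.19, 8.17 and 8.63 after 7 days, and 8.45, 8.34, 8.21 and 8.42 after 14 days. The groups overlapped with saline throughout. The changes of 0.18, -0.12 and -0.11 from 3 to 14 days were not called, and the 95% interval at 14 days ran from -0.33 to 0.11. The 14-day arrays lay below all 3-day arrays, by 0.29 ± 0.10 (limma, adjusted p = 0.058). In hippocampus the changes were 0.07, -0.11 and -0.03 and were not called.

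Adk, adenosine kinase, makes ZMP from AICAR and AMP from adenosine. In muscle the brighter probe ILMN_2986899 read 12.26, 12.28, 12.16 and 12.12 in saline, 12.04, 12.06, 12.16 and 12.01 after 3 days, 11.82, 11.85, 12.12 and 11.69 after 7 days, and 11.97, 11.97, 12.02 and 12.07 after 14 days. Replicate 3 of the 7-day group lay at the lower edge of the saline arrays and the other 3 below them. The change was -0.33 ± 0.09 at 7 days, a level 0.793 times that of saline (limma, adjusted p = 0.012), and -0.20 ± 0.09 at 14 days (limma, adjusted p = 0.12). The 7-day call held under all 16 alternatives, with values from -0.55 under median scaling to -0.28. The second probe, ILMN_2702471, did not pass, with -0.10 ± 0.15 at 7 days and -0.01 ± 0.15 at 14 days. Its 95% interval at 7 days, from -0.42 to 0.22, holds the value of the first probe.

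In hippocampus Adk varied little. The 2 probes changed by at most 0.07 in size at any time, and the 95% intervals at 14 days were -0.19 to 0.14 for ILMN_2702471 and -0.19 to 0.17 for ILMN_2986899. The difference of the 7-day changes between muscle and hippocampus for ILMN_2986899, -0.33 ± 0.12, did not pass (limma interaction, adjusted p = 0.053).

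Ampd1 is the AMP deaminase of skeletal muscle. On muscle arrays the raw intensity of ILMN_1237871 was 26620 to 40196, which put it at ranks 33 to 55 among all probes of an array, and that of ILMN_2971142 was 17016 to 25860.5, at ranks 69 to 115. The brightest probe of an array reached 47223 to 59475, so such bright spots may respond less than in proportion, and this was not tested. Normalised levels of ILMN_1237871 stayed between 14.79 and 15.13 on all 16 muscle arrays. Its change was -0.01 ± 0.09 at 7 and at 14 days, with a 95% interval from -0.21 to 0.18 at 14 days, and that of ILMN_2971142 was -0.09 ± 0.10 at 14 days, from -0.31 to 0.12. The deposited series values gave this first probe a different result, 0.26 SD units higher at 7 days (adjusted p = 0.0054) and 0.19 SD units at 14 days (adjusted p = 0.030). Both probes were below background on all 16 hippocampal arrays. Ampd3, the erythrocyte form, was not above background on any of the 32 arrays with its probe ILMN_1212698 and was not tested.

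Cell markers in muscle were read beside the treatment comparisons. Of all tested genes 10.3% were higher and 8.55% lower at 7 days, and 10.4% and 7.48% at 14 days. Muscle fibre markers summed to 226373 to 243738 on the saline arrays, 220850 to 242790 after 3 days, 234950 to 258846 after 7 days and 236328 to 246982 after 14 days, with 1 of 7 markers higher and 0 lower at 7 and at 14 days. Endothelial markers summed to 6061 to 6398 in saline, 6088 to 6232 after 3 days, 5371 to 6188 after 7 days and 5369 to 5802 after 14 days, with 1 of 6 lower at both times. Red cell markers reached 1743 to 6587 after 7 days and 679.9 to 3896 after 14 days, against 588.1 to 4279 in saline. At 7 days 1 of 4 red cell markers was higher, and 1 of 5 microglia and macrophage markers, 1 of 4 astrocyte markers and 1 of 3 oligodendrocyte markers were lower, with 0 of each called at 14 days. Their part in the results for Paics, Hprt, Adsl and Adk was not tested.

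Levels in the saline groups were set side by side on all 32 arrays normalised together. All 15 member probes tested differed between muscle and hippocampus (12 higher in muscle, 3 lower), where 80.1% of all 15532 tested probes did, so most genes of these tissues differ. Ampd1 was at least 561-fold higher in muscle on ILMN_1237871 and at least 396-fold on ILMN_2971142, bounds set by the lowest signal that counts as above background in hippocampus (limma, adjusted p = 1.7e-36 and 1.2e-36). These bounds hold for background-corrected values: the log2 differences were 9.58 and 9.52 with that correction, and 7.22 and 7.01 without it. Adsl averaged 10.26 ± 0.08 in muscle and 7.35 ± 0.14 in hippocampus (SD, n = 4 each), 7.5-fold higher in muscle (limma, adjusted p = 7.1e-22), with a log2 difference of 2.91, and of 2.19 without background correction.

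The genes of uptake and ring building were all higher in saline muscle. Atic was 3.10-fold higher on ILMN_2606564 and 3.27-fold on ILMN_3070951, Gart 1.88-fold and 3.18-fold, Slc29a1 2.80-fold, and Adk 1.56-fold and 1.77-fold. The third Atic probe, ILMN_2606567, was above background on 1 of 4 saline hippocampal arrays, so its log2 difference of 1.87 is given without a fold. Without background correction the log2 differences were smaller for dim probes: 0.72, 1.16 and 0.70 for Atic ILMN_2606564, ILMN_3070951 and ILMN_2606567 (1.63, 1.71 and 1.87 with it). For Gart ILMN_2622163 the difference was 1.01 without the correction and 1.67 with it, and for Slc29a1 0.92 and 1.49. Hprt went the other way: ILMN_2704499 averaged 11.11 ± 0.09 in muscle and 12.77 ± 0.04 in hippocampus (SD, n = 4 each), a log2 difference of -1.66 ± 0.08 (limma, adjusted p = 8.8e-19), and ILMN_2776552 gave one of -0.90 ± 0.11. ILMN_2767487 was not above background in saline muscle and was at least 1.55-fold lower there than in hippocampus (log2 difference -1.36, and -0.49 without background correction). Paics was above background on 1 of 4 saline muscle arrays and 0 of 4 hippocampal ones, so its call (0.57 ± 0.16) carries no fold.

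**Figure D5:**
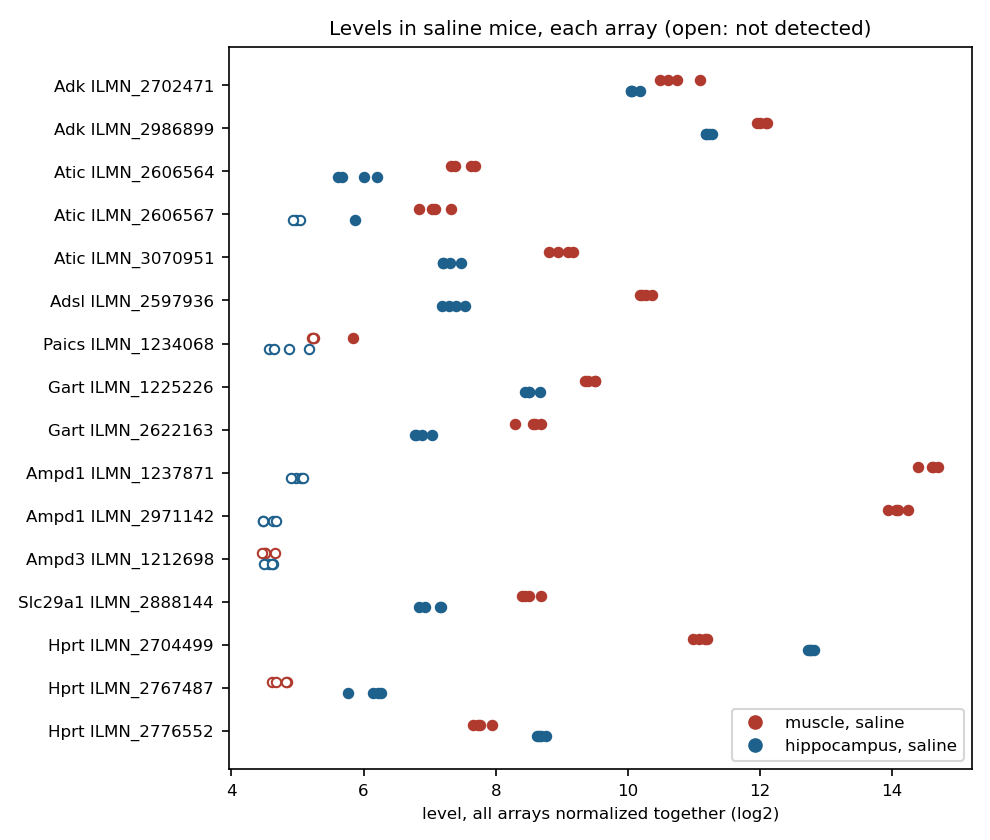
Level of each member probe on the 4 saline arrays of muscle (red) and of hippocampus (blue), on the log2 scale with all arrays normalised together; open points were not above background. Muscle lies above hippocampus for 12 of the 15 tested probes and below it for the 3 Hprt probes; Ampd3 is open in both.

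The rest of purine metabolism was read from 6 lists: de novo synthesis, salvage, breakdown and nucleotidases, adenylate and guanylate kinases, nucleoside transporters, and folate one-carbon supply. They name 62 genes beside the members, of which 47 have a probe and 33 were tested in muscle and 37 in hippocampus, each on its brightest probe. In muscle 3 were higher and 1 lower at 7 days (9.09% and 3.03%, against 10.3% and 8.55% of all tested genes), and 3 were higher and 4 lower at 14 days (9.09% and 12.1%, against 10.4% and 7.48%). In hippocampus 3 were higher and 4 lower at 7 days (8.11% and 10.8%, against 12.1% and 15.4%), and 4 were higher and 5 lower at 14 days (10.8% and 13.5%, against 12.6% and 17.5%). At 3 days 0 were called in either tissue. These shares lie near those of all genes.

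Nt5c, a cytosolic nucleotidase of the nucleotide breakdown list, and Ak1, the adenylate kinase that interconverts ADP with ATP and AMP, were higher in both tissues at both times. In muscle Nt5c averaged 7.56 ± 0.07 at 7 days and 7.65 ± 0.11 at 14 days, against 6.83 ± 0.23 in saline (SD, n = 4 each), changes of 0.73 and 0.82 (limma, adjusted p = 0.00018 and 4.3e-05). In hippocampus its changes were 0.37 and 0.40 (limma, adjusted p = 0.018 and 0.011), the first of which was lost without saline replicate 3 (adjusted p = 0.053). Ak1 changed by 0.44 and 0.43 in muscle (limma, adjusted p = 0.0012 and 0.0013), calls that median scaling removed, and by 0.51 and 0.48 in hippocampus (limma, adjusted p = 0.0039 and 0.0056).

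Prps1, which makes the ribose phosphate donor that Ppat and Hprt both use, was higher in muscle, by 0.50 ± 0.08 at 7 days and 0.47 ± 0.08 at 14 days (limma, adjusted p = 0.00037 and 0.00053), and lost both calls under median scaling. Impdh1, a paralogue of Impdh2 that turns IMP toward GMP, was 0.69 ± 0.11 and 0.63 ± 0.11 above saline in hippocampus (limma, adjusted p = 0.00054 and 0.00087), while in muscle it was -0.02 at 7 days and -0.45 ± 0.14 at 14 days (limma, adjusted p = 0.027). The muscle call for Impdh1 was lost without replicate 1, 3 or 4 of the 14-day group or replicate 2 or 4 of saline (adjusted p 0.052 to 0.082). Ampd2, the AMP deaminase of most tissues other than muscle, was 0.38 ± 0.11 below saline in hippocampus at 14 days (limma, adjusted p = 0.014), a call lost without replicate 3 of the 14-day group (adjusted p = 0.050), under median scaling (adjusted p = 0.37) and with the deposited series values (adjusted p = 0.082).

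The remaining genes called on their brightest probe had smaller or less stable changes. In muscle these were Mtap at 7 days (-0.36), and Pnp (-0.36), Dguok (-0.25) and Aldh1l2 (-0.46) at 14 days. In hippocampus Ak5 was called at 7 days (-0.42), Mthfs at 7 days (-0.51), Prps2 (0.58), Prps1l3 (-0.27) and Guk1 (-0.20) at 14 days, and Mtap (-0.33 and -0.36) and Slc29a3 (-0.35 and -0.32) at both. Of these, Ak5 at 7 days and Mtap at 14 days in hippocampus kept their calls when each array was left out in turn but lost them under median scaling (adjusted p = 0.38 for Ak5 and 0.42 for Mtap), Mtap also with the deposited series values. Each of the others lost its call in at least 1 such repeat (highest adjusted p 0.13). A second Mtap probe, ILMN_2879486, was not called. It changed by 0.03 and 0.22 in hippocampus and by -0.10 and 0.11 in muscle, at 7 and 14 days. Some dimmer probes were called too. Aldh1l1 ILMN_2703392 was lower in hippocampus (-0.40 and -0.46) and muscle (-0.54 and -0.64) at those times, while its other probes were not called. In hippocampus a dimmer probe was called lower for Adal and Nt5c3b and higher for Nt5c2, at 1 time each.

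Genes that most resembled the member probe with the smallest p of each tissue were found by Pearson correlation over that tissue's 16 arrays. For Hprt ILMN_2776552 in muscle they were Dram2 (0.99), the small GTPase Rab10 (0.99) and the muscle cofilin Cfl2 (0.99), and for Atic ILMN_3070951 in hippocampus Serpini1 (0.97), Ptges2 (0.96) and Rpp38 (0.95). After each group's mean was taken off, the correlations fell to between 0.63 and 0.74 in muscle and between 0.76 and 0.79 in hippocampus. All these points share the same arrays and the same division of the arrays by signal, so the values describe likeness only.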

How the data were processed

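Bulk RNA of 32 samples, 8 groups of 4, was amplified with a TotalPrep kit and hybridised to Illumina MouseRef-8 arrays, per the labels' protocols; BeadStudio 1.6.0 is named in the submitters' processing notes. The authors deposited for each array the probe intensity and the detection p-value of each of 25697 probes, not normalised. The authors' deposited series values are a score: each equals log2 intensity minus the array's mean, divided by its SD, to within 5e-10.

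From the intensities, background was estimated from the detection p-values (normexp with an offset of 16), arrays were quantile normalised within a tissue and log2 values taken (limma 3.58.1, R 4.3.3, Python 3.11.15). Probes with detection p below 0.05 on at least 4 of 16 arrays were tested, 12977 in muscle and 13659 in hippocampus. A linear model with 1 mean per group and empirical Bayes moderation was used, with Benjamini-Hochberg adjustment over all tested probes. Tissue differences were interactions on the values normalised within each tissue, over 11315 probes kept in both. Saline levels were compared on all 32 arrays normalised together. Alternatives changed the background correction, the scaling, the source of the values, the filter, the variance model, the joint normalisation and the replicate block, and left out each array.

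Symbols came from the platform table: 23978 probes had 1 symbol, 1719 none and 0 several. All probes of a member are reported, and in each comparison with saline up to 4 called genes of each pathway list, those with the smallest p on the brightest probe, are named. Some called probes of list genes that were not the brightest are given too. The 3 genes most alike in pattern were taken for the member probe with the smallest p in each tissue. The members and lists were chosen with earlier results of these data known. The scripts were tested on simulated data. Replicate numbers did not pair samples: over 12 pairs of groups the correlations of same-numbered deviations ran from -0.37 to 0.19, with every pair over 0.1 in 0 of 12. The highest correlation between 2 arrays was 0.997. The number of arrays limits the precision.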

Additional observations from a re-analysis of the deposited data

Results flagged for a closer look

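Single arrays stood apart from the other 3 of their group in 11 of 108 groups of 4 checked, where chance gives about 1 in 20; the measure is the gap to the nearest array over the whole range, with a limit of 0.829. In muscle these were Paics on saline replicate 3 (0.967, 5.66 with 5.14 to 5.16 on the others) and on 7-day replicate 1 (0.831), and Hprt ILMN_2776552 on 3-day replicate 1 (0.900). In hippocampus they were Atic ILMN_2606567 on saline replicate 2 (0.898), Atic ILMN_2606564 on 7-day replicate 1 (0.836) and 14-day replicate 2 (0.846), and Hprt ILMN_2767487 on 7-day replicate 2 (0.943) and 14-day replicate 4 (0.857). Hprt ILMN_2704499 on 3-day replicate 4 (0.850), Adk ILMN_2986899 on 3-day replicate 2 (0.849) and Adk ILMN_2702471 on saline replicate 2 (0.879) completed the hippocampal ones. The changes from saline differed between muscle and hippocampus by a test of the difference for Hprt ILMN_2776552 (0.84 at 7 days and 0.88 at 14 days), for Atic ILMN_3070951 (-0.45 at 7 days) and for Adsl (-0.44 at 14 days).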

How the results depend on the processing

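Leaving out 1 array at a time, the number of member probes called ran from 3 to 4 at 7 days and 3 to 5 at 14 days in muscle, and from 2 to 3 and 2 to 4 in hippocampus. Against the 3-day groups it ran from 3 to 4 and 4 to 5 in muscle, and from 3 to 5 and 4 to 5 in hippocampus. It stayed at 15 for saline muscle against hippocampus, ran from 1 to 3 for the tissue differences at 7 and at 14 days, and stayed at 0 in the other comparisons.

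Median scaling gave 5 calls in place of 3 at 7 days and 2 in place of 4 at 14 days in hippocampus, and 7 in place of 3 and 2 in place of 5 against the 3-day group. In muscle it gave 7 in place of 4 at 14 days, and for the tissue differences 9 and 5 in place of 2 each. The series values gave 5 in place of 3 for hippocampus at 7 days, against saline and against 3 days. Keeping only probes detected on all arrays left fewer to test, with 3 calls at 7 days and 2 at 14 days in muscle, and 9 in place of 15 for saline muscle against hippocampus. With the replicate number as a block the tissue difference at 7 days had 1 call in place of 2, and 235 of 240 values kept their direction and side of the threshold, with 4 weaker and 1 stronger.

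Reversed values were those of Gart ILMN_1225226 in hippocampus at 7 days (0.065) and in the tissue difference at 7 days (-0.50), Gart ILMN_2622163 in that difference (-0.46) and Adsl at 7 against 3 days in hippocampus (0.33), all under median scaling, and Ampd1 ILMN_1237871 in muscle with the series values (0.26 at 7 days and 0.19 at 14 days). Median scaling moved the median of all probes by 0.18 and 0.07 in hippocampus and by -0.24 and -0.25 in muscle at 7 and 14 days. Of all called probes it then had 93.2% higher in hippocampus at 7 days and 21.5% in muscle, against 48.3% and 55% with quantile normalisation. At 14 days the shares were 87.5% and 19.4%, against 46.2% and 58.5%. For tissue differences they were 5.71% at 7 days and 9.32% at 14 days, against 41.8% and 43%, and the cause was not tested. Dim probes such as Paics rest on signal close to background.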
